A study of Mus musculus with 6 samples.

Results

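The genes described here make, regulate, move and remove cholesterol in cultured mouse neurons. They were taken by name as 34 symbols, of which 33 are rows of both deposited tables, out of 23235 genes in each. The absent symbol, Msmo1, is the current name of the row listed as Sc4mol. By role, 18 of the 33 genes encode enzymes of synthesis, 5 control the pathway through SREBP transcription factors, 4 act in uptake and transport inside the cell, and 6 act in efflux, storage, hydroxylation and LXR signalling. RNA sequencing covered 6 libraries of primary cortical and hippocampal neurons from mouse embryos at day 15, grown for 17 days. HDAC2 knockdown (2 libraries) and Sp3 knockdown (2 libraries) received lentivirus with short hairpin RNAs, and 2 control libraries carry the label control, without a statement of what their virus held. Every culture had 1 uM cytosine arabinoside (AraC), which blocks dividing cells, on day 5 and lentivirus on day 12. HDAC2 is a class I histone deacetylase and Sp3 a zinc finger factor that binds GC-rich promoter elements, and the series asks whether they act on common genes. The cultures hold whatever glia survived AraC, and RNA of whole cultures mixes all their cells.

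Cholesterol is built from acetyl-CoA through mevalonate, isoprenoid and squalene intermediates, followed by a long series of sterol steps. When membrane sterol is low, SCAP carries SREBP from the endoplasmic reticulum to the Golgi for cleavage, and the freed factor switches on the enzymes of synthesis, while INSIG proteins hold SCAP back when sterol is plentiful. Excess cholesterol yields oxysterols that activate LXR receptors, which switch on exporters such as ABCA1 and ABCG1. The brain makes its own cholesterol because lipoproteins of the blood do not reach it, and mature neurons are known to take up part of theirs from particles released by astrocytes.

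The authors deposited 1 FPKM value per group (a fragment count divided by transcript length and sequencing yield) and no value per library, so no spread within a group can be given. Errors below are standard errors, computed as the fold change over the authors' statistic. Their median over the tested genes of the list was 0.27 log2 units for HDAC2 knockdown and 0.12 for Sp3 knockdown, so smaller changes could be called in the second. The labels do not state that libraries of 1 group are separate cultures, and p-values may then measure technical variation alone. Both comparisons use the same control values. The median gene of at least 1 FPKM was shifted by 0.32 log2 units in HDAC2 knockdown and by -0.13 in Sp3 knockdown, and fold changes are therefore given relative to that median (centred). "Rose" and "fell" are used for genes with an adjusted p under 0.05 after centring (normal test on the centred value, Benjamini-Hochberg over all genes), and "called" for a q-value under 0.05 in the authors' deposited table. Whether that shift lies in the scaling or in most genes cannot be told apart. The normal test carries these calls: with a t distribution of 2 degrees of freedom (4 for the difference between knockdowns) 0 genes of either table passed. Hdac2 stood at 12.3 FPKM in HDAC2 knockdown, 38.8 FPKM in Sp3 knockdown and 49.4 FPKM in control in the authors' deposited table. Sp3 stood at 26.7 FPKM in HDAC2 knockdown, 5.82 FPKM in Sp3 knockdown and 15.5 FPKM in control in the authors' deposited table. Each target was thus lowest in the group named for it, and Sp3 was highest in HDAC2 knockdown.

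Of the 33 genes, 31 had a test in both tables. Hmgcs1, the enzyme that makes HMG-CoA, is listed at 0 in all groups at a locus on unplaced chromosome 13 sequence, so no level is known for it here. Nr1h3, the LXR alpha receptor gene, was too low for the authors' test, at 0.652 FPKM in HDAC2 knockdown, 0.318 FPKM in Sp3 knockdown and 0.34 FPKM in control in the authors' deposited table. Among the tested genes the control level ran from 6.7 FPKM for Insig2 to 296 FPKM for Sc4mol in the authors' deposited table. The enzyme genes Sc4mol, Sqle and Fdps were the most abundant of the list in control, and Insig2, Stard4 and Nr1h2 the least abundant of those tested. Summed over the enzymes of synthesis, the authors' deposited table gives 972 FPKM in HDAC2 knockdown, 1693 FPKM in Sp3 knockdown and 1413 FPKM in control. For the efflux and LXR genes the sums are 198 FPKM in HDAC2 knockdown, 99.2 FPKM in Sp3 knockdown and 158 FPKM in control in the authors' deposited table. The sum for efflux in HDAC2 knockdown was 125% of control, an excess close to the shift of the median gene, and Abca1 made up most of that excess.

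**Figure D1:**
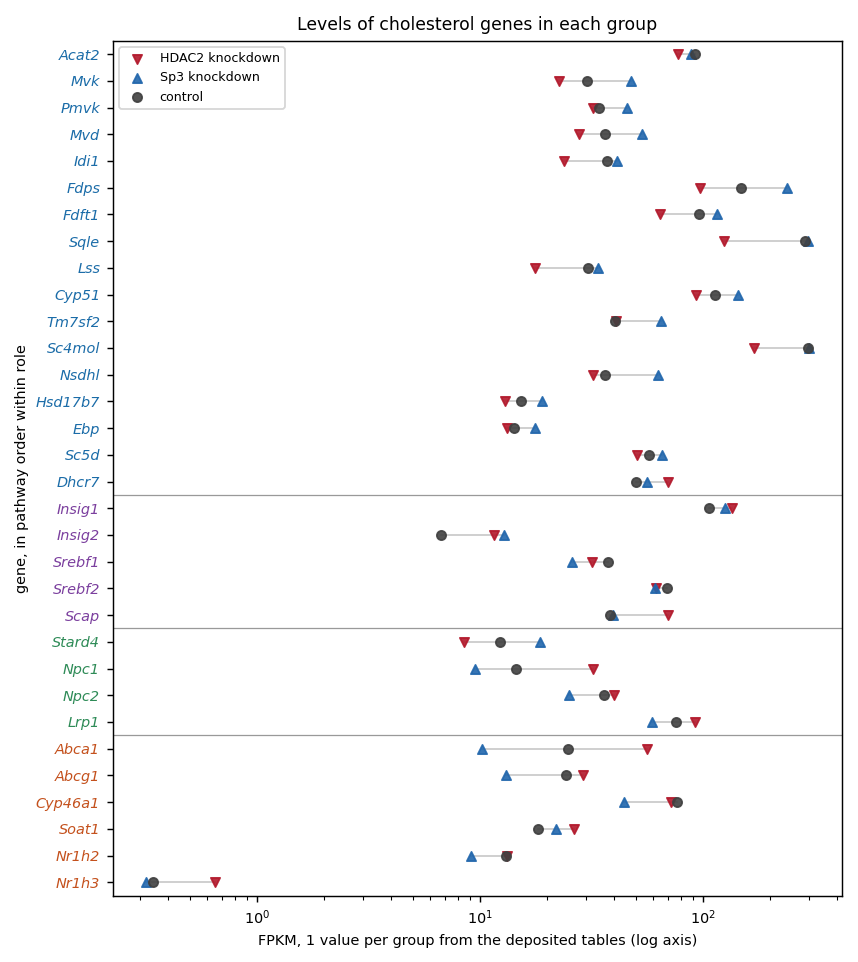
FPKM of each cholesterol gene (log axis, 1 value per group from the deposited tables, no error available) in HDAC2 knockdown, Sp3 knockdown and control, with genes in pathway order and roles separated by lines; Hmgcs1, listed at 0, is left out. Most enzymes of synthesis have HDAC2 knockdown at the left and Sp3 knockdown at the right (Fdps 97.6, 240.0 and 148 FPKM in HDAC2 knockdown, Sp3 knockdown and control), and Abca1 has the opposite order (56.2, 10.2 and 24.8 FPKM).

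In HDAC2 knockdown the enzymes of synthesis were lower. Of 17 tested enzymes, 7 fell and 0 rose after centring, and 16 had a centred value below 0, with a median of -0.59 against 0.00 over all tested genes. All 31 tested genes of the list gave 8 that fell, where 7.59% of all genes did, and 1 that rose, where 10.2% of all genes did. By the q-value in the authors' deposited table, 3 of the 31 were called lower (3.6% of all genes) and 4 higher (24.6% of all genes), and all 3 called lower (Idi1, Fdps and Lss) were enzymes of synthesis. The falls of Mvk, Mvd, Fdft1, Sqle and Stard4 passed only after centring. Values of whole cultures cannot tell fewer cells of a type from less RNA per cell, here and below.

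The first enzymes of the pathway carry acetyl units to mevalonate and on to activated isoprenes. Mvk, mevalonate kinase, stood at 22.7 FPKM in HDAC2 knockdown and 30.3 FPKM in control in the authors' deposited table (q = 0.146), and it fell after centring (-0.73 ± 0.23, adjusted p = 0.00985). The next kinase gene, Pmvk, measured 32.3 FPKM in HDAC2 knockdown and 34.2 FPKM in control in the authors' deposited table, with a centred value of -0.40 ± 0.20 that did not pass (adjusted p = 0.173). Mvd, which decarboxylates the product, measured 27.8 FPKM in HDAC2 knockdown and 36.4 FPKM in control in the authors' deposited table, and fell (-0.70 ± 0.22, adjusted p = 0.0129). Idi1 interconverts the isoprene units, and Fdps joins them into farnesyl diphosphate, the branch point to sterols and to prenylated proteins. Idi1 was called in the authors' deposited table, at 23.8 FPKM in HDAC2 knockdown and 37.3 FPKM in control (q = 0.0215), and after centring it stood at -0.97 ± 0.23. Fdps was called too, at 97.6 FPKM in HDAC2 knockdown and 148 FPKM in control in the authors' deposited table (q = 0.0422). Centring put Fdps at -0.92 ± 0.24. Acat2, the thiolase gene at the head of the pathway, measured 77.2 FPKM in HDAC2 knockdown and 92.1 FPKM in control in the authors' deposited table, and its centred value (-0.57 ± 0.29, adjusted p = 0.171) did not pass.

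Squalene synthesis and closure of the sterol ring follow. Fdft1, squalene synthase, measured 64.4 FPKM in HDAC2 knockdown and 96.1 FPKM in control in the authors' deposited table (q = 0.154), and fell after centring (-0.89 ± 0.32, adjusted p = 0.0324). Sqle, squalene epoxidase, measured 125 FPKM in HDAC2 knockdown and 286 FPKM in control in the authors' deposited table (q = 0.0733). Its centred value of -1.51 ± 0.54 was the lowest of the list, and its error the widest among the enzymes (adjusted p = 0.0317 from the authors' statistic). Lss, which closes the ring to lanosterol, was called in the authors' deposited table at 17.6 FPKM in HDAC2 knockdown and 30.5 FPKM in control (q = 0.00607), and its centred value was -1.11 ± 0.24 (adjusted p = 1.02e-04). Of the 8 tested enzymes after Lss, 0 fell: their centred values ran from -1.11 ± 0.44 for Sc4mol, a sterol methyl oxidase (adjusted p = 0.0565 from the authors' statistic), to 0.17 ± 0.30 for Dhcr7, the reductase of a final step (adjusted p = 0.788). Sc4mol measured 170.0 FPKM in HDAC2 knockdown and 296 FPKM in control in the authors' deposited table, and Nsdhl 32.3 FPKM in HDAC2 knockdown and 36.4 FPKM in control. Dhcr7 was the only tested enzyme above the median gene, at 70.1 FPKM in HDAC2 knockdown and 50.05 FPKM in control in the authors' deposited table (q = 0.21). The 7 enzymes that fell thus lay from Mvk to Lss, and whether early and late steps differ was not tested.

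In Sp3 knockdown the enzymes of synthesis were higher. Of 17 tested enzymes, 12 rose and 0 fell after centring, and all 17 had a centred value above 0 (median 0.43 against 0.00 over all tested genes). All 31 tested genes gave 15 that rose, where 20.2% of all genes did, and 7 that fell, where 17.6% of all genes did. By q-value in the authors' deposited table, 11 of the 31 were called higher (13.2% of all genes) and 7 lower (26.1% of all genes), and 8 of those called higher were enzymes of synthesis. The 4 enzymes Idi1, Lss, Sc5d and Dhcr7 rose only after centring on the median, and with upper-quartile scaling or no centring they did not pass.

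The largest rises lay on both sides of squalene. Nsdhl, a sterol dehydrogenase gene, stood at 62.8 FPKM in Sp3 knockdown and 36.4 FPKM in control in the authors' deposited table (q = 4.03e-13), a centred change of 0.92 ± 0.10. Fdps stood at 240.0 FPKM in Sp3 knockdown and 148 FPKM in control in the authors' deposited table (q = 8.61e-08), a centred change of 0.83 ± 0.12. Tm7sf2, a sterol reductase gene, measured 64.7 FPKM in Sp3 knockdown and 40.3 FPKM in control in the authors' deposited table (q = 1.2e-10), and rose by 0.82 ± 0.098. Fdps acts before squalene is made, and Tm7sf2 and Nsdhl act on sterols after the ring is closed. The mevalonate genes rose as well: Mvk was at 47.6 FPKM in Sp3 knockdown and 30.3 FPKM in control in the authors' deposited table (0.78 ± 0.097 after centring, q = 6.55e-10). Mvd was at 53.4 FPKM in Sp3 knockdown and 36.4 FPKM in control in the authors' deposited table (0.68 ± 0.096, q = 1.7e-07), and Pmvk at 45.7 FPKM in Sp3 knockdown and 34.2 FPKM in control (0.55 ± 0.091, q = 5.84e-05). Smaller rises were measured for Ebp, a sterol isomerase gene (0.45 ± 0.13), Hsd17b7, a sterol ketoreductase gene (0.43 ± 0.10), Sc5d, a sterol desaturase gene (0.33 ± 0.11), Dhcr7 (0.31 ± 0.12), Lss (0.29 ± 0.10) and Idi1 (0.28 ± 0.10). The 5 enzymes that did not pass were Cyp51, the lanosterol demethylase gene (0.48 ± 0.26), Fdft1 (0.40 ± 0.17, adjusted p = 0.0567 from the authors' statistic), Sqle (0.18 ± 0.42), Sc4mol (0.16 ± 0.30) and Acat2 (0.08 ± 0.13). Sqle and Sc4mol, the most abundant enzymes in control, differed little from it in the authors' deposited table, at 296 FPKM in Sp3 knockdown and 286 FPKM in control for Sqle, and 301 FPKM in Sp3 knockdown and 296 FPKM in control for Sc4mol.

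**Figure D2:**
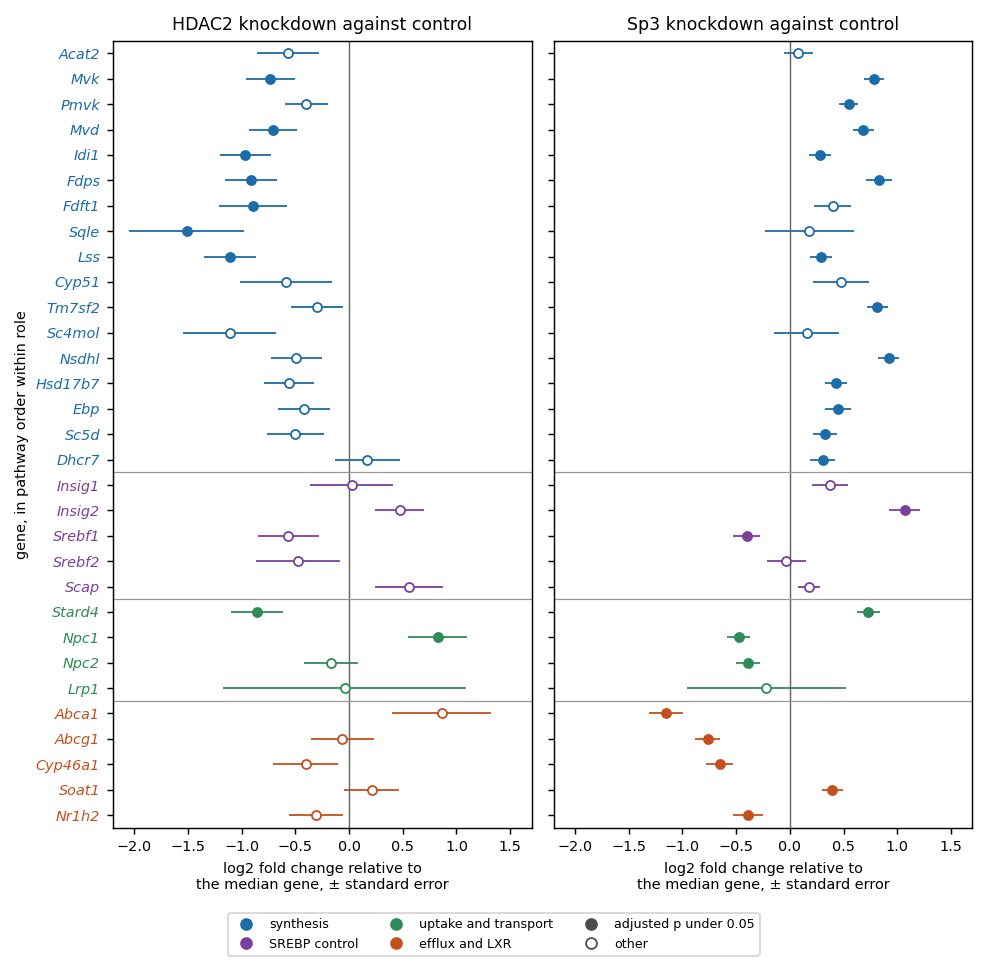
Centred log2 fold change (x axis, bars are ± 1 standard error implied by the authors' statistic) of the 31 tested genes in HDAC2 knockdown (left) and Sp3 knockdown (right), coloured by role; filled points have an adjusted p under 0.05. In HDAC2 knockdown 16 of 17 enzymes of synthesis lie below 0, in Sp3 knockdown all 17 lie above 0, and 4 of 5 efflux and LXR genes lie below 0 in Sp3 knockdown.

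Since the comparisons share their controls, the knockdowns were also set against each other gene by gene, as HDAC2 minus Sp3 knockdown, where the control value cancels. Of the 31 genes, 13 were lower in HDAC2 than in Sp3 knockdown (6.87% of all genes) and 2 higher (7.86% of all genes), at an adjusted p under 0.05 by a normal test of the difference over all genes. Of the 17 enzymes 12 were lower and 0 higher, with a median difference of -1.25 against -0.01 over all genes. The largest such difference was that of Fdps, -1.75 with a 95% interval of -2.28 to -1.22 (adjusted p = 7.09e-09 from the authors' statistics). Mvk differed by -1.52 (-1.997 to -1.03), Nsdhl by -1.41 (-1.91 to -0.91), Lss by -1.39 (-1.91 to -0.87) and Mvd by -1.39 (-1.87 to -0.91). For Sqle the interval of -3.03 to -0.36 was wide and the adjusted p of 0.0768 missed the threshold. Dhcr7 gave -0.14 with an interval of -0.77 to 0.50, so a difference as large as that of Mvk lies outside its interval. Without centring, which adds the shifts of the median genes to every difference, 8 of the 31 genes were lower and 5 higher, and Pmvk, Fdft1, Hsd17b7, Ebp and Sc5d no longer passed. The error of the common control is counted in both comparisons, which makes these standard errors too wide for the difference.

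**Figure D3:**
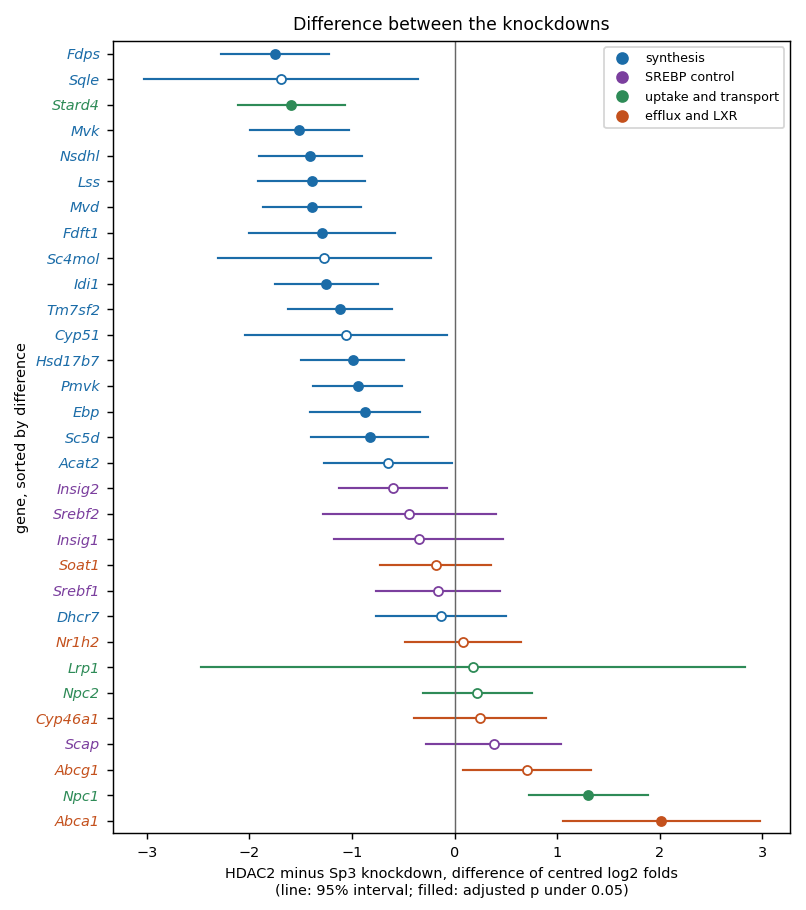
Difference between the knockdowns (HDAC2 minus Sp3, in centred log2 units) for the 31 tested genes sorted by value, with 95% intervals as lines and filled points for an adjusted p under 0.05. Enzymes of synthesis, with Stard4 among them, fill the upper rows from Fdps (-1.75) downward, and Npc1 (1.30) and Abca1 (2.02) are the filled points to the right of 0.

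Among genes that moved in opposite directions in the knockdowns after centring, the windows around the transcription starts of Mvk, Mvd and Lss are shown. Of the genes with an entry, these had the smallest p of the difference. The share of all genes that moved in opposite directions was not counted, and both comparisons use the same control values. In the authors' deposited table Mvk (q = 0.146) and Mvd (q = 0.174) were not called in HDAC2 knockdown, nor Lss in Sp3 knockdown (q = 0.252). For each of them, passing in both knockdowns thus depended on centring. The GC box is a sequence that Sp3 binds, and binding at these starts was not tested. The windows run from 250 bases before to 50 bases after the RefSeq start on GRCm38.p6, a later build than the mm9 of the expression files. They are written along the gene's own strand. Mvk lies at chr5:114444019-114444318 (plus strand), Mvd at chr8:122443373-122443672 (minus strand) and Lss at chr10:76531355-76531654 (plus strand). Capitals mark matches, on either strand, to the GC box (GGGCGG) and to the CCAAT box (CCAAT), which the factor NF-Y binds beside SREBP at many genes of this pathway.
Mvk: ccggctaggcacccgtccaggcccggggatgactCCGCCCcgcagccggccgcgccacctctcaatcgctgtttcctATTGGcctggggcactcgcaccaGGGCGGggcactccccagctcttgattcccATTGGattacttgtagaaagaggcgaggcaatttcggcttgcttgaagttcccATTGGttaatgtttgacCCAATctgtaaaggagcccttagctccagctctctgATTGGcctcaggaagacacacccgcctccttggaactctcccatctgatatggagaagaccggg
Mvd: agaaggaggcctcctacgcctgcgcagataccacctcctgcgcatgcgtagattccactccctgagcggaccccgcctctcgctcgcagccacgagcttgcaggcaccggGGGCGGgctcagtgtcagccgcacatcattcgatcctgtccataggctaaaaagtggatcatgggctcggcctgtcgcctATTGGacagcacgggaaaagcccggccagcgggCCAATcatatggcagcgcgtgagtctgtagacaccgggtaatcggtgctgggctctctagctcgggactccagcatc
Lss: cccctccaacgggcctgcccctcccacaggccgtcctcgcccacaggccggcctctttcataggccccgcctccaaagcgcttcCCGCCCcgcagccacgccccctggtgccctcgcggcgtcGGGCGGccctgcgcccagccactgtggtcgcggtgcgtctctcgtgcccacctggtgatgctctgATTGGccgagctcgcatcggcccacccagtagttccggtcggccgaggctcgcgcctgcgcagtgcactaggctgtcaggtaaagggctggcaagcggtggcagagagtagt
The RefSeq windows used here held no entry for Fdps, Stard4 and Npc1, which also moved in opposite directions. Idi1, which fell in HDAC2 and rose in Sp3 knockdown, ranked below Mvk, Mvd and Lss. Mvk holds 2 GC boxes and 5 CCAAT boxes, Mvd 1 and 2, and Lss 2 and 1. RefSeq windows were found for 27 of the 33 genes, 36 windows in all. A GC box was present in 28 of 36 windows (77.8%), against 62.8% of 11800 windows of genes tested in both tables and 35.7% of all 32851 windows. A CCAAT box was present in 22 of 36 windows (61.1%), against 38.3% of the windows of tested genes. Among the enzymes alone, a GC box was present in 15 of 18 windows (83.3%) and a CCAAT box in 14 of 18 (77.8%). Counted by gene, over any of its windows, 14 of 15 enzyme genes had a GC box and 14 of 15 a CCAAT box. No count by gene was made for all genes, and the shares above are of windows. The letters TCACNCCAC, a form of the sterol regulatory element that SREBP binds, occurred in the window of Hmgcs1 and in no other member's, and in 1.12% of the windows of tested genes. Matches of different motifs did not overlap. A match is only a run of letters, and its absence from a window says nothing of the factor.

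**Figure D4:**
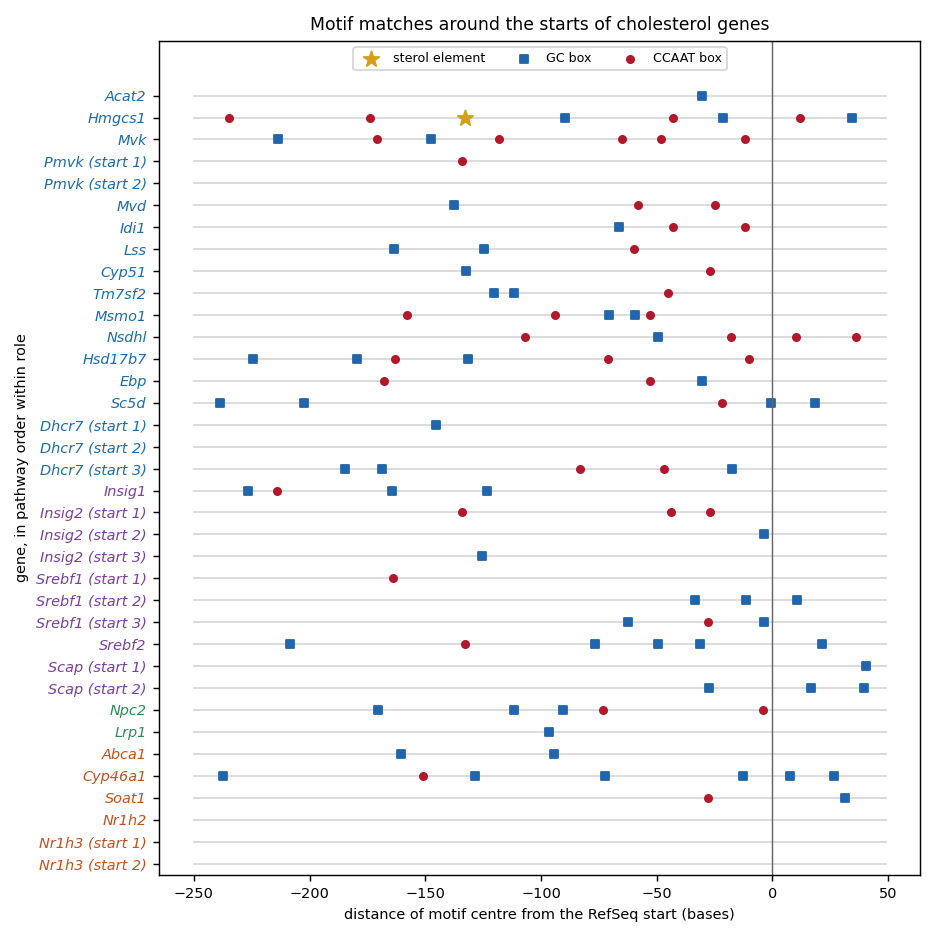
Motif matches by distance from the RefSeq start (bases, 0 is the start, negative is upstream) in 36 windows of 27 genes, with genes in pathway order coloured by role and each start of a gene on its own row. CCAAT boxes lie in windows of 14 of the 15 enzyme genes (not counted by gene over all genes), and the single sterol element match is in Hmgcs1.

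Of the 5 genes that control SREBP, 0 rose and 0 fell in HDAC2 knockdown after centring, and 1 rose and 1 fell in Sp3 knockdown. Over all genes 10.2% rose and 7.59% fell in HDAC2 knockdown, and 20.2% rose and 17.6% fell in Sp3 knockdown. Counts among 5 genes lie near those shares. Insig2, which retains SCAP in the endoplasmic reticulum, measured 11.6 FPKM in HDAC2 knockdown, 12.8 FPKM in Sp3 knockdown and 6.7 FPKM in control, and was called higher in both comparisons of the authors' deposited table (q = 0.00354 in HDAC2 and 1.2e-09 in Sp3 knockdown). After centring it rose in Sp3 knockdown (1.07 ± 0.14), the highest value of the list there, while 0.47 ± 0.23 in HDAC2 knockdown did not pass (adjusted p = 0.154 from the authors' statistic). Its relative Insig1, itself a target of SREBP, was more abundant, at 135 FPKM in HDAC2 knockdown, 126 FPKM in Sp3 knockdown and 107 FPKM in control in the authors' deposited table. Neither comparison of Insig1 passed, with centred values of 0.03 ± 0.38 in HDAC2 and 0.37 ± 0.17 in Sp3 knockdown (adjusted p = 0.982 and 0.07 from the authors' statistics). Scap, the escort protein gene, was called higher by the authors' deposited table in HDAC2 knockdown, at 70.1 FPKM against 38.2 FPKM in control (q = 0.0229), a call not kept after centring (0.56 ± 0.32, adjusted p = 0.243). In Sp3 knockdown Scap measured 39.4 FPKM in the authors' deposited table, close to control. Srebf1, which encodes the SREBP forms tied most to fatty acid synthesis, fell in Sp3 knockdown (26.01 FPKM, against 37.7 FPKM in control in the authors' deposited table, -0.40 ± 0.12 after centring). In HDAC2 knockdown it measured 31.7 FPKM in the authors' deposited table, with a centred value of -0.56 ± 0.28 that did not pass (adjusted p = 0.166). Srebf2, whose product is the main activator of cholesterol synthesis, measured 61.6 FPKM in HDAC2 knockdown, 61.4 FPKM in Sp3 knockdown and 68.9 FPKM in control in the authors' deposited table. Its centred values were -0.48 ± 0.39 in HDAC2 and -0.03 ± 0.18 in Sp3 knockdown, and neither passed. The direct difference of Srebf2 between the knockdowns was -0.44, with an interval of -1.29 to 0.40 that includes 0.

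Genes of uptake and transport did not move as one group. Stard4, which carries sterol between membranes and is known as an SREBP target, measured 8.47 FPKM in HDAC2 knockdown, 18.7 FPKM in Sp3 knockdown and 12.4 FPKM in control in the authors' deposited table. It fell in HDAC2 knockdown (-0.86 ± 0.24, adjusted p = 0.00381) and rose in Sp3 knockdown (0.73 ± 0.11, adjusted p = 1.18e-10, both from the authors' statistic), as did the enzymes Mvk, Mvd, Idi1, Fdps and Lss. How many of all genes moved in opposite directions was not counted. Npc1, the lysosomal membrane protein that releases cholesterol taken up in lipoproteins, measured 32.1 FPKM in HDAC2 knockdown, 9.53 FPKM in Sp3 knockdown and 14.5 FPKM in control in the authors' deposited table. This gene rose in HDAC2 knockdown (0.83 ± 0.28, adjusted p = 0.0201) and fell in Sp3 knockdown (-0.48 ± 0.11, adjusted p = 6.93e-05, both from the authors' statistic). The direct differences were -1.59 for Stard4 (-2.11 to -1.07) and 1.30 for Npc1 (0.72 to 1.89), so these genes of 1 role differed in opposite directions. Npc2, the soluble partner of NPC1, fell in Sp3 knockdown (25.1 FPKM, against 36.0 FPKM in control in the authors' deposited table, -0.39 ± 0.11) and did not pass in HDAC2 knockdown (39.9 FPKM in the authors' deposited table, -0.17 ± 0.25). For Lrp1, a large endocytic receptor for lipoproteins, the errors of 1.13 in HDAC2 and 0.74 in Sp3 knockdown were the widest of the list and no change was detectable at 91.9 FPKM in HDAC2 knockdown, 59.3 FPKM in Sp3 knockdown and 75.9 FPKM in control in the authors' deposited table.

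Of the 5 tested genes of efflux, storage, hydroxylation and LXR signalling, 4 fell and 1 rose in Sp3 knockdown after centring (17.6% and 20.2% of all genes). In HDAC2 knockdown, where 7.59% of all genes fell and 10.2% rose, 0 of the 5 passed in either direction. Abca1, the exporter that loads cholesterol onto apolipoproteins, measured 56.2 FPKM in HDAC2 knockdown, 10.2 FPKM in Sp3 knockdown and 24.8 FPKM in control in the authors' deposited table. It was called in both comparisons of the authors' deposited table (q = 0.0361 in HDAC2 and 1.26e-14 in Sp3 knockdown). After centring it fell in Sp3 knockdown by 1.15 ± 0.16 log2 units, and 0.86 ± 0.46 in HDAC2 knockdown did not pass (adjusted p = 0.204 from the authors' statistic). The difference between knockdowns was 2.02 (1.06 to 2.97, adjusted p = 6.93e-04 from the authors' statistics), the highest of the list. Abcg1, the exporter to lipoprotein particles, measured 29.1 FPKM in HDAC2 knockdown, 13.1 FPKM in Sp3 knockdown and 24.4 FPKM in control in the authors' deposited table, and fell in Sp3 knockdown (-0.77 ± 0.12). Cyp46a1, the neuronal hydroxylase whose product carries cholesterol out of the brain, measured 72.2 FPKM in HDAC2 knockdown, 44.5 FPKM in Sp3 knockdown and 76.7 FPKM in control in the authors' deposited table, and fell in Sp3 knockdown (-0.65 ± 0.13). Nr1h2, the LXR beta receptor gene, measured 13.2 FPKM in HDAC2 knockdown, 9.13 FPKM in Sp3 knockdown and 13.1 FPKM in control in the authors' deposited table, and fell in Sp3 knockdown (-0.39 ± 0.14, adjusted p = 0.0186). Soat1, which esterifies cholesterol for storage, was the exception: it rose in Sp3 knockdown (21.995 FPKM, against 18.3 FPKM in control in the authors' deposited table, 0.40 ± 0.10), and 26.4 FPKM in HDAC2 knockdown gave a centred value of 0.21 ± 0.26 that did not pass. For Abcg1, Cyp46a1, Nr1h2 and Soat1 the direct difference between the knockdowns did not pass, with adjusted p of 0.132, 0.722, 0.915 and 0.765.

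Markers of glia moved in the same libraries, and their part in these results was not tested. Of 10 tested astrocyte markers 5 rose and 0 fell in HDAC2 knockdown, and 2 rose and 5 fell in Sp3 knockdown, after centring. All genes gave 10.2% that rose and 7.59% that fell in HDAC2 knockdown, and 20.2% and 17.6% in Sp3 knockdown. The summed astrocyte level was 2161 FPKM in HDAC2 knockdown, 643 FPKM in Sp3 knockdown and 728 FPKM in control in the authors' deposited table. Of 12 oligodendrocyte lineage markers 7 rose and 0 fell among 11 tested in HDAC2 knockdown, and 0 rose and 7 fell among 9 tested in Sp3 knockdown. Their sums were 429 FPKM in HDAC2 knockdown, 130.4 FPKM in Sp3 knockdown and 225 FPKM in control in the authors' deposited table, and no astrocyte or oligodendrocyte lineage marker was listed at 0 in any group. Of 9 neuron markers 0 rose and 1 fell in HDAC2 knockdown, and 5 rose and 0 fell in Sp3 knockdown, with sums of 969 FPKM in HDAC2 knockdown, 1209.6 FPKM in Sp3 knockdown and 905 FPKM in control in the authors' deposited table. Neuron markers were thus abundant, as the label of the cultures has it, but in HDAC2 knockdown the sum of 10 astrocyte markers was above that of 9 neuron markers. Map2, also chosen as a neuron marker, is not in its sum, and sums over chosen markers do not measure shares of cells. The largest astrocyte values in HDAC2 knockdown, Slc1a3 (721 FPKM), Glul (455 FPKM), Aldoc (297 FPKM) and Slc1a2 (290 FPKM), were not called in the authors' deposited table. The 5 microglia markers summed to 1.6 FPKM or less and the 5 endothelial and mural markers to 3.6 FPKM or less in every group in the authors' deposited table, with C1qa listed at 0 in Sp3 knockdown and control and Cldn5 in HDAC2 knockdown. Both glial sums were lowest and the neuron sum highest in Sp3 knockdown. Every gene of transport and efflux except Stard4 and Soat1 also had its lowest level there, the neuronal Cyp46a1 included. These levels and sums are not centred, and the median gene was itself shifted, by 0.32 log2 units in HDAC2 and -0.13 in Sp3 knockdown. The share of all genes with their lowest level in Sp3 knockdown was not counted. This order is therefore not shown to be particular to genes of transport and efflux. Of those lowest in Sp3 knockdown, Lrp1 did not pass after centring and Nr1h3 had no test. Both glial sums were highest in HDAC2 knockdown, where the enzymes of synthesis had their lowest sum.

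Lists of genes next to the cholesterol pathway can be read against all genes, of which 10.2% rose and 7.59% fell in HDAC2 knockdown, and 20.2% rose and 17.6% fell in Sp3 knockdown. Several of their counts lay near those shares. The list of fatty acid synthesis genes under SREBP also holds genes outside fatty acid synthesis, such as Tmem97, Lpin1, Gpam and Pcyt1a. Of its 16 tested genes, 1 rose and 3 fell in HDAC2 knockdown, and 6 rose and 2 fell in Sp3 knockdown, with centred medians of 0.10 and 0.34. Acly, which makes cytosolic acetyl-CoA for both fatty acids and sterols, stood at 55.0 FPKM in HDAC2 knockdown, 177 FPKM in Sp3 knockdown and 155 FPKM in control in the authors' deposited table, and fell in HDAC2 knockdown (-1.81 ± 0.22 after centring). Tmem97, which encodes a sterol-responsive binding partner of NPC1, also fell in HDAC2 knockdown (-0.89 ± 0.23), as did Lpin1, a phosphatidate phosphatase gene (-0.48 ± 0.10). In Sp3 knockdown Acaca, the acetyl-CoA carboxylase gene (0.96 ± 0.13), and Me1, a malic enzyme gene (0.74 ± 0.098), rose, and Gpam, which starts glycerolipid synthesis, fell (-0.78 ± 0.11).

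Of 15 genes of the isoprenoid branch, which uses products of Idi1 and Fdps, 1 rose and 2 fell in HDAC2 knockdown, and 4 rose and 5 fell in Sp3 knockdown. Ggps1, which makes the geranylgeranyl donor for protein prenylation, stood at 14.9 FPKM in HDAC2 knockdown, 14.03 FPKM in Sp3 knockdown and 24.3 FPKM in control in the authors' deposited table, and fell in both (-1.02 ± 0.23 and -0.66 ± 0.11). Its upstream neighbour Fdps had opposite changes in the knockdowns. Icmt, which methylates prenylated proteins, fell in HDAC2 (-1.34 ± 0.11) and in Sp3 knockdown (-0.34 ± 0.085), and Coq2 of ubiquinone synthesis fell in Sp3 knockdown (-1.11 ± 0.13). Dolpp1 of the dolichol cycle rose in HDAC2 (0.68 ± 0.24) and in Sp3 knockdown (1.00 ± 0.12), and Dhdds, the dolichol chain synthase subunit gene, rose in Sp3 knockdown (0.71 ± 0.11).

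Of 13 genes of SREBP processing and sterol-regulated degradation, 1 rose and 2 fell in HDAC2 knockdown, and 4 rose and 1 fell in Sp3 knockdown. Mbtps1, the first protease that cuts SREBP in the Golgi, rose in Sp3 knockdown (0.40 ± 0.086), as did Paqr3, a Golgi protein gene (0.50 ± 0.16). Syvn1, a ubiquitin ligase gene of the endoplasmic reticulum, fell in HDAC2 (-0.83 ± 0.16) and Sp3 knockdown (-0.45 ± 0.078). Ube2g2, a ubiquitin-conjugating enzyme gene of the same machinery, fell in HDAC2 knockdown (-1.05 ± 0.26). Among lipoprotein receptors and sterol transport genes, 6 rose and 3 fell of 26 tested in HDAC2 knockdown, and 13 rose and 2 fell of 27 tested in Sp3 knockdown. Abcg4, a neuronal relative of Abcg1, measured 15.7 FPKM in HDAC2 knockdown, 17.9 FPKM in Sp3 knockdown and 7.62 FPKM in control in the authors' deposited table, and rose in both (0.73 ± 0.25 and 1.37 ± 0.11), where Abcg1 fell in Sp3 knockdown. Lipa, the lysosomal lipase that frees cholesterol from its esters, rose in HDAC2 (0.76 ± 0.25) and Sp3 knockdown (1.47 ± 0.16), and Soat2, the second esterifying enzyme gene, fell in both (-1.33 ± 0.27 and -1.27 ± 0.18). Lcat, which esterifies cholesterol on lipoproteins and is known from astrocytes, rose in HDAC2 knockdown (1.74 ± 0.37), Rxrb, a partner receptor of LXR, fell there (-0.71 ± 0.11), and Osbpl1a, a sterol-binding protein gene, rose in Sp3 knockdown (0.56 ± 0.053).

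**Figure D5:**
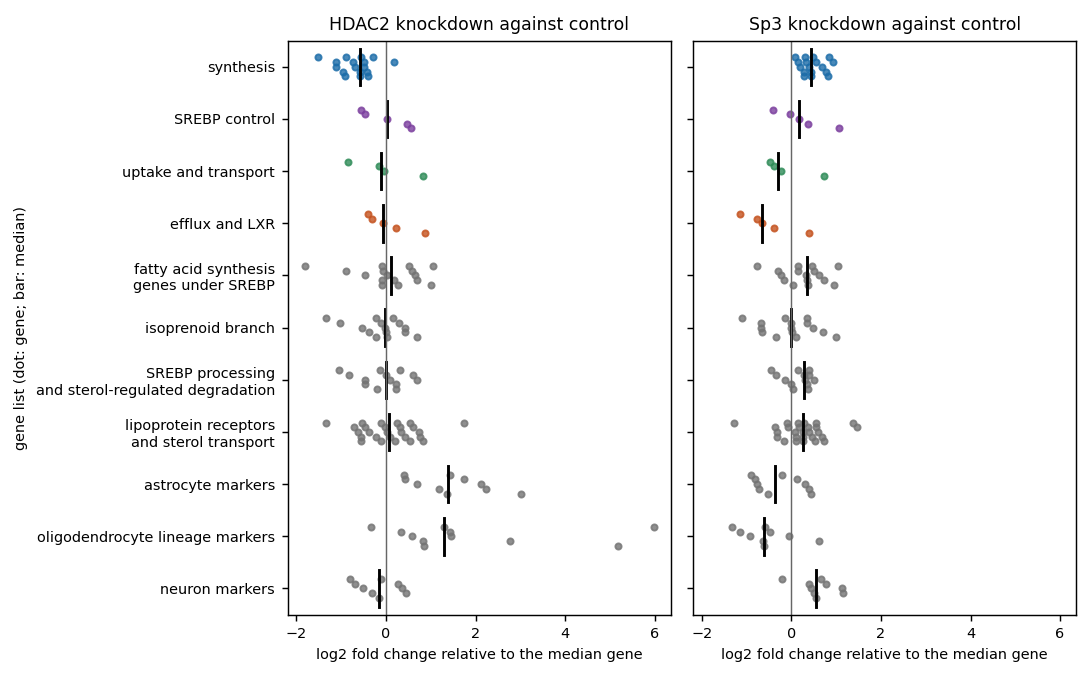
Centred log2 fold change of every tested gene (dots) and the median (black bars) for the 4 roles of cholesterol genes, 4 neighbouring gene lists and markers of 3 cell types, in HDAC2 knockdown (left) and Sp3 knockdown (right), on 1 scale. The synthesis median is -0.59 in HDAC2 and 0.43 in Sp3 knockdown, the efflux and LXR median is -0.06 and -0.65, and the astrocyte marker median is 1.39 and -0.37.

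Positions of the genes named first are those of the deposited tables in mm9. Fdps lies on chromosome 3 (88897509 to 88905889), Lss on chromosome 10 (75994371 to 76024971), Nsdhl on chromosome X (70163859 to 70203867), Npc1 on chromosome 18 (12327238 to 12394895) and Abca1 on chromosome 4 (53043660 to 53172767). The tables give 6 genes a locus shared with another gene, so that reads of a partner may enter their values where strand was not used. These are Fdft1 with Ctsb, Lss with 4930483K19Rik, Tm7sf2 with 1110014N23Rik, Srebf1 with Rai1, Srebf2 with the microRNA gene Mir33, and Npc1 with 3110002H16Rik.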

How the data were processed

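Per the labels' protocols, column-purified total RNA for 6 libraries of mouse neurons was sequenced after Illumina TruSeq library preparation. TopHat, Bowtie, Cuffdiff and build mm9 are named in the submitters' processing notes. Not given in the sources used here are versions, annotation, strand setting and filters. Per the file headers, deposited values for each knockdown against control are 1 FPKM per group, a log2 fold, a statistic (a score of no fixed range), a p-value and a q-value, all computed by the authors. Depth per library is unknown. Genes with status OK numbered 13569 in the HDAC2 and 13619 in the Sp3 table.

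From these, log2 ratios of the FPKM were centred on the median over genes of at least 1 FPKM. The sign of the deposited statistic, opposite to that of the fold, was turned, and the fold divided by it gave the standard error (7 genes per table with an error over 5 were left out). A two-sided normal p of the centred value was adjusted by the Benjamini-Hochberg method over all tested genes, and the difference between knockdowns used the summed squared errors. These steps were run on simulated folds with normal noise of the same standard errors, which cannot check the normal assumption itself. Python 3.11.15, pandas 2.3.3 and scipy 1.17.1 were used. Promoter windows came from RefSeq tables. The members and lists were chosen with earlier results of these data known. All members are described, and from each neighbouring list the 3 genes with the smallest centred p in each comparison are named, except that some further genes of the pathway are not reported here. Alternatives varied the threshold, centre, reference distribution, minimum fold, FPKM filter and pseudocount.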

Additional observations from a re-analysis of the deposited data

How the results depend on the processing

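Depth is unknown, and leaving out 1 library at a time was not run, since only 1 value per group was used. No paired analysis was possible because the columns hold 1 value per group and carry no replicate numbers.

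The counts that moved most did so with the reference distribution. With a t distribution (2 degrees of freedom for each comparison, 4 for the difference) in place of the normal, 0 members were called in each of the 3 tests, and so were 0 genes of the whole tables. At an unadjusted p under 0.05 that t distribution left 1 of 31 members in HDAC2 knockdown, 12 of 31 in Sp3 knockdown and 15 of 31 for the difference. Calls after centring therefore rest on treating the authors' statistic as a normal deviate, which matches their deposited p-values.

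Without centring, members called in HDAC2 knockdown were 4 higher and 3 lower, in place of 1 and 8, and the difference between knockdowns gave 5 higher and 8 lower, in place of 2 and 13. The median of the tested members was then -0.16 in HDAC2 and 0.17 in Sp3 knockdown, in place of -0.48 and 0.31, and that of the enzymes -0.27 and 0.30, in place of -0.59 and 0.43. At an adjusted p under 0.01 HDAC2 knockdown kept 0 higher and 5 lower. In the authors' calls for HDAC2 knockdown, a q under 0.01 left 2 higher and 1 lower and a q under 0.10 gave 5 lower. With a minimum absolute log2 fold of 0.5, Sp3 knockdown had 7 higher in place of 11 by the authors' q, and 8 higher and 3 lower in place of 15 and 7 after centring. Another 52 counts and medians stayed within the limits set for them: a count within 1.5 times its main value, and a median within the members' median standard error. Of the values for single members under the alternatives, 363 kept their side of the threshold, 65 no longer passed it, 6 passed it newly and 0 changed sign while called.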
